A study of Mus musculus with 15 samples.

Results

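Prex1 was examined together with 7 other genes that act on or belong to the Rac and Rnd families of small GTPases, namely the exchange factor genes Prex2, Tiam1, and Tiam2, the GTPase genes Rac1 and Rac3, and the Rnd genes Rnd2 and Rnd3. These 8 genes were taken by name from the 19475 genes in the table of normalized read counts, and all 8 passed the minimum mean of 5 by which 16507 genes entered the tests. Prex1 was chosen for its difference between Tbr1K228E/K228E and WT embryos in these samples, so its values in all genotype comparisons are given as a description with no test. The other 7 genes were listed for their family and were tested. RNA-Seq was carried out on mouse brain at E16.5, a late embryonic stage, with 5 WT, 5 heterozygous Tbr1+/K228E, and 5 homozygous Tbr1K228E/K228E embryos, and each genotype comprised 3 females and 2 males. Tbr1K228E is a germline knock-in on the C57BL/6J background that exchanges lysine for glutamate in TBR1 (K228E) in every cell that expresses it, and the selection cassette had been removed by crossing to protamine-Cre mice. The study describes the samples as forebrain in its results, whereas its methods and the labels name brain.

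Small GTPases such as Rac are molecular switches that cycle between an active GTP-bound and an inactive GDP-bound form and control the actin cytoskeleton. Guanine nucleotide exchange factors of the P-Rex and Tiam families load Rac with GTP, and active Rac drives branched actin through the WAVE and Arp2/3 complexes and acts on cofilin through PAK and LIM kinases. Rnd proteins lack GTPase activity, stay bound to GTP, and oppose RhoA signaling. In the embryonic cortex, Rac activity and the Rnd proteins are known for their parts in the radial migration and shape changes of newborn neurons.

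The mutated codon is shown because it is the designed coding difference between the genotypes. It lies in exon 1 of Tbr1 (ENSMUSG00000035033, plus strand) at chr2:61805389-61805391 of GRCm38, and the 51 bases at chr2:61805349-61805399 of the reference hold the wild-type lysine codon in capitals.
Tbr1: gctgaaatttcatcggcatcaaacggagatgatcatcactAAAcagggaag
WT embryos had a Tbr1 normalized read count of 3537 ± 1049 (SD, n = 5), Tbr1+/K228E embryos one of 6269 ± 1532 (SD, n = 5), and Tbr1K228E/K228E embryos one of 11366 ± 3160 (SD, n = 5). The means rise with the number of mutant alleles in the labels, but the values count reads of both alleles and do not identify the base exchange.

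Some embryos stood apart in their content of other brain regions and membranes. Of 17 Hox genes that mark the hindbrain and spinal cord, 16 were measured (Hoxb1 was not in the table), and Hoxb3 was the most abundant, with a mean of 137 over the 15 embryos. The summed normalized read counts of these Hox genes were 1141, 391, 13.9, 3274, and 4.80 in WT replicates 1 to 5. They were 3958, 0.66, 6.59, 10.1, and 6.65 in Tbr1+/K228E and 575, 252, 11.0, 53.7, and 4.67 in Tbr1K228E/K228E replicates 1 to 5. Thus 5 embryos, namely WT replicates 1, 2, and 4 and replicate 1 of each mutant genotype, had sums above 300, a value set after the sums were seen, and 15 of the 16 Hox genes were at 0 in Tbr1+/K228E replicate 2. The 12 meningeal genes, led by Igf2 with a mean of 6037, summed to between 1668 in WT replicate 3 and 47989 in WT replicate 1, and none of them was at 0 in any embryo. The 11 genes of the cortical excitatory lineage, led by Bcl11b and not including Tbr1, were above 0 in every embryo and summed to between 25844 in WT replicate 4 and 59696 in WT replicate 3. For 9 marker scores, the lowest p between a mutant genotype and WT embryos was 0.294 in two-sided exact permutation tests of 5 against 5.

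The 8 genes differed widely in level, which was compared as normalized read count per kb of the longest annotated transcript in the WT embryos. Rac3, the Rac gene known for its expression in neurons, had the highest level, at 3498 ± 592 (SD, n = 5) per kb. Rac1, the ubiquitous Rac gene, followed at 1969 ± 30.4 (SD, n = 5) per kb. The Rnd genes were close to each other, with 1331 ± 114 (SD, n = 5) per kb for Rnd3 and 1313 ± 138 (SD, n = 5) per kb for Rnd2, and their WT embryos overlapped. Among the exchange factors, Tiam2 stood at 690 ± 257 (SD, n = 5) per kb and Prex1 at 581 ± 58.4 (SD, n = 5) per kb, again with overlapping embryos. Tiam1 was lower, at 278 ± 12.5 (SD, n = 5) per kb, and Prex2 was lowest, at 40.5 ± 5.32 (SD, n = 5) per kb. All other neighbors in this order did not overlap between embryos, and Tiam1 exceeded Prex2 by 6.86-fold. Prex1 lay at the 76.4th percentile and Prex2 at the 24.3rd percentile of 16503 genes with a transcript length. When the level was divided by the length of all exons together, Rnd2 (1041) stood above Rnd3 (891) and Prex1 (370) above Tiam2 (332), so the order within these overlapping pairs depended on the length used. Rac1 and Rac3 encode closely related proteins, and reads that fit the transcripts of both were divided between them by the abundance estimate.

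**Figure D1:**
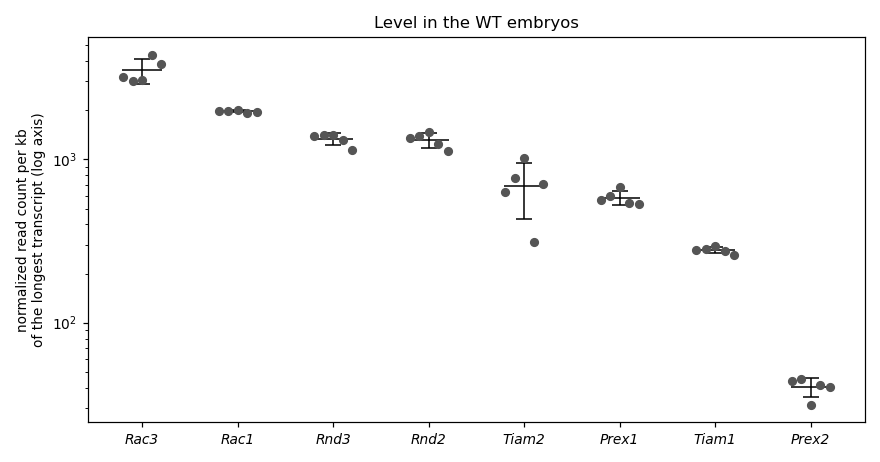
Normalized read count per kb of the longest transcript (vertical log axis) for each gene in the 5 WT embryos; points are embryos and bars are the mean ± SD. Levels run from 3498 per kb for Rac3 to 40.5 per kb for Prex2, and Prex1 at 581 per kb overlaps with Tiam2.

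Prex1 encodes P-Rex1, a Rac exchange factor that is activated by the beta-gamma subunits of G proteins and by the lipid product of PI3 kinase. The gene (ENSMUSG00000039621) lies on the minus strand of chromosome 2 at chr2:166566342-166713832. Its normalized read counts were 3680, 3916, 4406, 3535, and 3457 in WT replicates 1 to 5, with a mean of 3799 ± 382 (SD, n = 5). In Tbr1+/K228E replicates 1 to 5 they were 3369, 3641, 3529, 3509, and 3501, with a mean of 3510 ± 96.9 (SD, n = 5). In Tbr1K228E/K228E replicates 1 to 5 they were 2808, 2474, 2788, 2773, and 2814, with a mean of 2732 ± 145 (SD, n = 5). Every Tbr1K228E/K228E embryo was below every WT and every Tbr1+/K228E embryo, and the same held for 0.273% and 0.388% of all tested genes. Nothing is read from these shares, since Prex1 was chosen on the same embryos. The Tbr1+/K228E embryos lay within the range of the WT embryos or just under it. In limma, the log2 fold change of Prex1 on the log2(normalized read count + 1) scale was -0.47 (SE 0.059) between Tbr1K228E/K228E and WT embryos, a change of -27.9%. It was -0.11 (SE 0.059), or -7.27%, between Tbr1+/K228E and WT, and -0.36 (SE 0.059), or -22.2%, between Tbr1K228E/K228E and Tbr1+/K228E embryos. These comparisons share their embryos and are not independent of one another. WT replicate 3 had the highest Prex1 value of all embryos, and without it the log2 fold changes relative to WT were -0.42 in Tbr1K228E/K228E and -0.05 in Tbr1+/K228E embryos. In bulk tissue, fewer cells that express a gene and less RNA per cell cannot be told apart.

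The log2 fold change of Prex1 is also given from fits that take up the makeup of the samples or leave out embryos. They use the embryos on which Prex1 was chosen and are a description, and the part of the makeup in the difference was not tested. In fits added after seeing the data, with the cortical score (the mean log2 value of the 11 cortical genes) as a covariate, the log2 fold change of Prex1 between Tbr1K228E/K228E and WT embryos was -0.49 (SE 0.042). Without the 5 embryos with high Hox sums, which leaves 2 WT embryos, it was -0.53 (SE 0.087). Without the 3 embryos with the lowest meningeal scores it was -0.44. In the planned fit, with the scores of the Hox, meningeal, and dividing-cell genes as covariates, it was -0.48 (SE 0.033). This is the fit called the one with marker scores below, and the other marker lists did not enter it.

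Because TBR1 is a T-box transcription factor and the knock-in changes its DNA-binding domain, the promoter of Prex1 is shown. It covers 250 bases before and 50 bases after the RefSeq transcription start, on the minus strand at chr2:166713783-166714082 of GRCm38.p6, and CG dinucleotides are in capitals.
Prex1: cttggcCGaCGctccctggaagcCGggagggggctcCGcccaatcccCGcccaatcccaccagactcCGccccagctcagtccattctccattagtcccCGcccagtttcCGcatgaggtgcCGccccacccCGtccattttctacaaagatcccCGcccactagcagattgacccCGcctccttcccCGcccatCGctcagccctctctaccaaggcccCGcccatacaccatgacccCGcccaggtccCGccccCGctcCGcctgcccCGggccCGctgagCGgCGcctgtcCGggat
This window holds 24 CG dinucleotides and has a GC content of 69.3%, and 80.0% of 32851 RefSeq promoter windows of the same length hold fewer CG dinucleotides (median 7). The T-box motif AGGTGTGA (TCACACCT on the other strand) was found in 419 of these windows (1.275%), and the shorter GGTGTGA, which is part of it, in 1307 (3.979%), both strands counted. Neither was present in the windows of Prex1, Tiam1, Tiam2, Rac3, Rnd3, or Tbr1, which says no more than that these letters are not in these 300 bases. Prex2, Rac1, and Rnd2 had no entry among these windows.

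**Figure D2:**
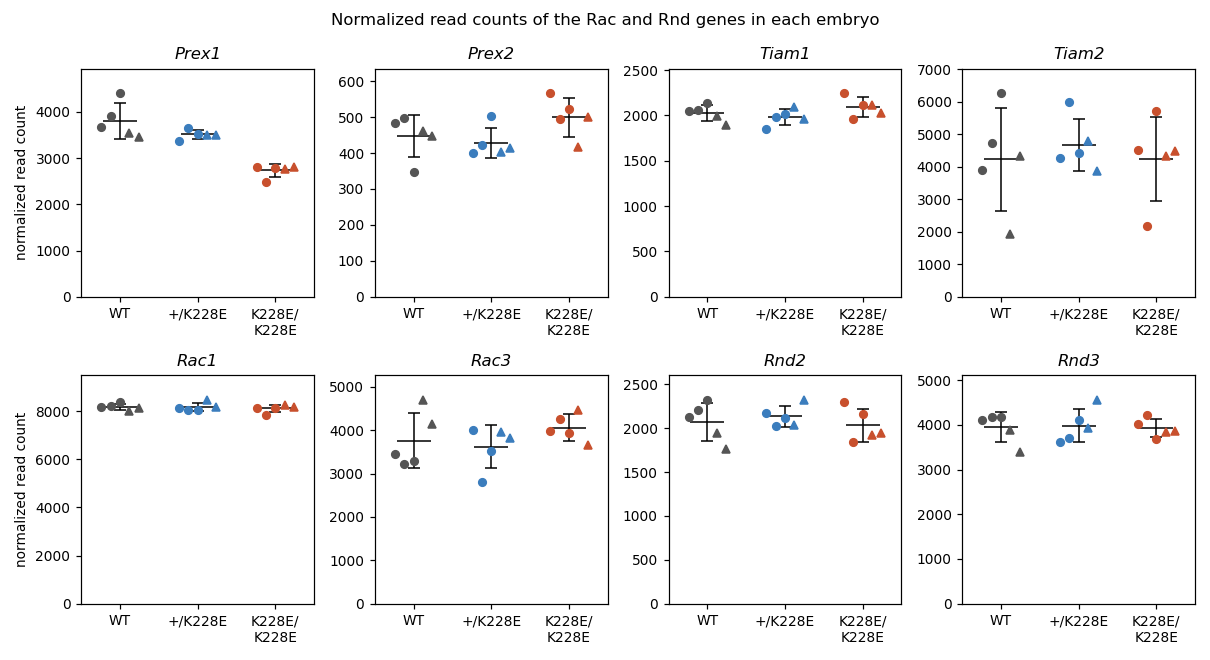
Normalized read count (vertical axes, from 0) of each gene in WT, Tbr1+/K228E, and Tbr1K228E/K228E embryos; circles are females, triangles are males, and bars are the mean ± SD of 5 embryos. The Tbr1K228E/K228E embryos lie at 2474 to 2814 for Prex1, under all other embryos, whereas the genotypes overlap for the other 7 genes.

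Of the other 7 genes, none passed an adjusted p of 0.05 in any comparison of genotypes. The background was low: in the fit over all genes with limma and the Benjamini–Hochberg correction, 21 genes (0.127%) were called between Tbr1K228E/K228E and WT, 0 (0.0%) between Tbr1+/K228E and WT, and 13 (0.0788%) between Tbr1K228E/K228E and Tbr1+/K228E embryos, with 534, 295, and 544 genes at an unadjusted p under 0.05. Prex1 was among the 21 and the 13, and nothing is read from this, since it was chosen on the same embryos. For each of the other 7 genes the genotypes overlapped in all 3 comparisons, beside a background of 98 (0.594%), 43 (0.26%), and 145 (0.878%) genes without overlap. Over 525 fits of these 7 genes under other settings, 0 were called and the lowest adjusted p was 0.366.

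Prex2, the closest relative of Prex1 and likewise a Rac exchange factor (plus strand, chr1:10993465-11303681; positions of genes are those of GENCODE M21 on GRCm38), had normalized read counts of 483, 498, 348, 461, and 448 in WT replicates 1 to 5. They were 400, 423, 502, 402, and 415 in Tbr1+/K228E and 567, 494, 521, 417, and 500 in Tbr1K228E/K228E replicates 1 to 5. The means were 447 ± 58.8 (SD, n = 5), 428 ± 42.3 (SD, n = 5), and 500 ± 54.5 (SD, n = 5). The 2 highest values were in Tbr1K228E/K228E embryos, but the groups overlapped. The log2 fold change of Prex2 between Tbr1K228E/K228E and WT embryos was 0.16, with a 95% confidence interval from -3.92% to 30.5%, and an exact permutation p of 0.214. Between Tbr1K228E/K228E and Tbr1+/K228E embryos it was 0.22, with an exact permutation p of 0.0635 and an adjusted p of 0.996 in limma.

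Tiam1, a Rac exchange factor with known parts in neuronal polarity and spine growth (minus strand, chr16:89787111-90143769), was steady across embryos. Its normalized read counts ranged from 1894 to 2140 in WT (mean 2025 ± 91.4, SD, n = 5), from 1854 to 2097 in Tbr1+/K228E (1982 ± 89.1, SD, n = 5), and from 1966 to 2248 in Tbr1K228E/K228E embryos (2095 ± 108, SD, n = 5). The difference between Tbr1K228E/K228E and WT embryos was 3.42%, with a 95% confidence interval from -3.34% to 10.7%, so that a change as large as that of Prex1 lay outside the interval.

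Tiam2, the relative of Tiam1 that is known from neurons (plus strand, chr17:3326573-3531344), varied far more. Its normalized read counts were 3885, 4728, 6269, 1916, and 4329 in WT replicates 1 to 5. They were 4268, 5998, 4434, 4792, and 3870 in Tbr1+/K228E and 4514, 2169, 5723, 4333, and 4478 in Tbr1K228E/K228E replicates 1 to 5. WT replicate 4 and Tbr1K228E/K228E replicate 2 were low, and WT replicate 3 was highest. Between Tbr1K228E/K228E and WT embryos the log2 fold change of Tiam2 was 0.04, but its 95% confidence interval ran from -32.1% to 55.0%, so that a change of the size of that of Prex1 in either direction could not be told from this spread (exact permutation p = 0.873).

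Rac1 (minus strand, chr5:143503634-143528036) was the steadiest of the 8 genes. Its normalized read counts were 8185, 8210, 8376, 8024, and 8150 in WT replicates 1 to 5. They were 8121, 8063, 8039, 8469, and 8180 in Tbr1+/K228E and 8129, 7852, 8143, 8271, and 8167 in Tbr1K228E/K228E replicates 1 to 5. The means differed by -0.94% between Tbr1K228E/K228E and WT embryos, with a 95% confidence interval from -4.79% to 3.06% (exact permutation p = 0.444), and by -0.19% between Tbr1+/K228E and WT embryos (-4.06% to 3.85%, exact permutation p = 0.865). The SD of its log2 values within genotypes was 0.027, which put it at the 0.0238th percentile of the 12596 genes whose mean reached 100.

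Rac3 (plus strand, chr11:120721470-120723969) had normalized read counts of 3455, 3225, 3299, 4701, and 4138 in WT replicates 1 to 5. They were 3996, 2797, 3515, 3957, and 3833 in Tbr1+/K228E and 3975, 4259, 3949, 4474, and 3657 in Tbr1K228E/K228E replicates 1 to 5. The highest Rac3 value was in WT replicate 4 and the lowest in Tbr1+/K228E replicate 2. The log2 fold change was 0.12 between Tbr1K228E/K228E and WT embryos, with a 95% confidence interval from -7.65% to 28.4% (exact permutation p = 0.310).

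Rnd2 (plus strand, chr11:101464999-101471853) and Rnd3 (minus strand, chr2:51130438-51149111) encode Rnd proteins, and Rnd2 is known as a target of the proneural factor Neurog2 in migrating cortical neurons. The normalized read counts of Rnd2 averaged 2072 ± 217 (SD, n = 5) for WT, 2133 ± 121 (SD, n = 5) for Tbr1+/K228E, and 2031 ± 190 (SD, n = 5) for Tbr1K228E/K228E embryos. The difference between Tbr1K228E/K228E and WT embryos was -1.86%, with a 95% confidence interval from -12.2% to 9.68%. For Rnd3 the values were 3950 ± 337 (SD, n = 5), 3987 ± 375 (SD, n = 5), and 3929 ± 205 (SD, n = 5), and the difference was -0.32%, with a 95% confidence interval from -9.91% to 10.3%. In both Rnd genes all 3 genotypes overlapped, and the intervals do not reach a change of the size measured for Prex1.

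**Figure D3:**
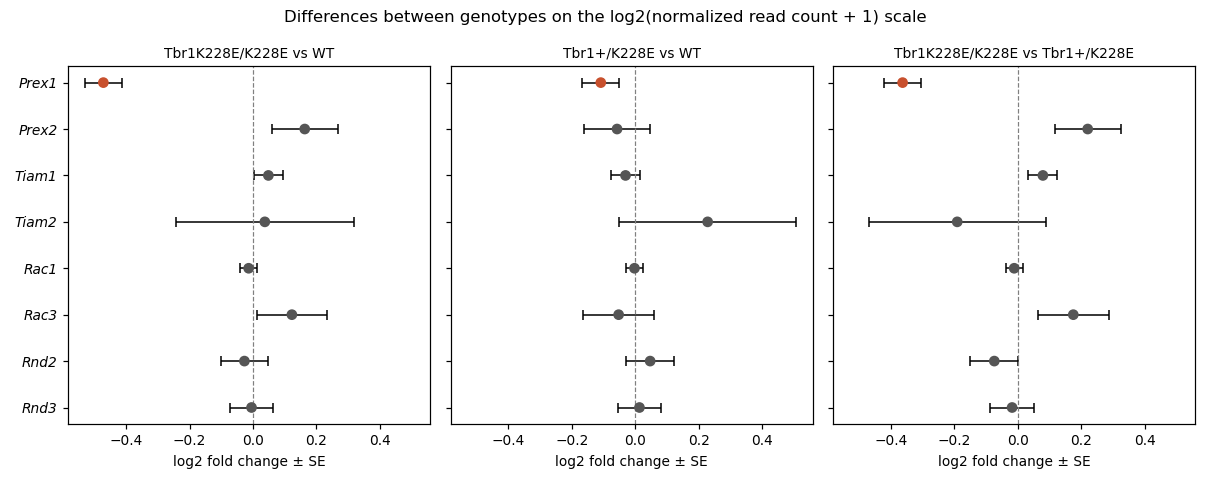
Log2 fold change (horizontal axes, points) and its standard error (bars) of each gene in the 3 comparisons of genotypes, from limma on log2(normalized read count + 1); Prex1 is in red. Prex1 lies at -0.47, -0.11, and -0.36, and the wide bars of Tiam2 reflect its spread between embryos.

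The wider pathway was followed in 9 lists with 163 genes, of which 162 were tested (Pak5 was not in the table). In all 3 comparisons 0 of the 162 genes passed the adjusted p of 0.05 in limma, with 4, 1, and 4 genes at an unadjusted p under 0.05. The median log2 fold change of the 162 genes between Tbr1K228E/K228E and WT embryos was 0.004, beside -0.002 for all tested genes, of which 8043 were above 0 and 8464 below. Of the 27 other Rac exchange factors and their partners, 12 had a log2 fold change above 0 and 15 below, with a median of -0.04. Their smallest p-values belonged to Dock1 (-0.20, SE 0.12) and Dock5 (-0.53, SE 0.34), members of the DOCK family of exchange factors. The 17 Rac GTPase-activating proteins, which switch Rac off, had a median of 0.007 (11 above 0 and 6 below), and the 3 GDP-dissociation inhibitors, which hold small GTPases in the cytosol, a median of -0.03 (1 above 0 and 2 below). The smallest p-values were those of Arhgap22 (0.35, SE 0.32) and Arhgap32 (0.07, SE 0.067) in the former list and of Arhgdia (-0.03, SE 0.054) and Arhgdib (-0.07, SE 0.24) in the latter. Of the 19 other small GTPases, such as Cdc42 and Rhoa, 6 had a log2 fold change above 0 and 13 below, with a median of -0.02, and the smallest p-values were those of Rhou (-0.11, SE 0.042) and Rhod (-0.27, SE 0.28).

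Downstream of Rac, the 14 tested genes of the PAK, LIM kinase, and cofilin group had a median log2 fold change of 0.02 (10 above 0 and 4 below). The smallest p in this group was that of Pak1, which encodes a kinase activated by Rac and had means of 5652 in WT and 5920 in Tbr1K228E/K228E embryos (0.07, SE 0.040). Cfl1, which encodes the actin-severing protein cofilin and came next, had means of 26049 in WT and 27219 in Tbr1K228E/K228E embryos (0.06, SE 0.039). The 20 genes of the WAVE and Arp2/3 group, a list that also holds Baiap2, had a median of 0.007 (12 above 0 and 8 below). The smallest p among them was that of Wasf1, which encodes WAVE1 and had means of 3662 and 4068 (0.15, SE 0.052, unadjusted p = 0.0112 in limma, adjusted p = 1.00). It was followed by Arpc5, an Arp2/3 subunit (0.08, SE 0.041). Among 16 partners and upstream factors of the Rnd proteins (median 0.002, 9 above 0 and 7 below), Plxnd1, a semaphorin receptor, had the smallest p, with means of 3054 and 2592 (-0.24, SE 0.098). The 21 genes for G protein beta and gamma subunits and PI3 kinase, the inputs of P-Rex1, had a median of -0.0007 (9 above 0 and 12 below), and the 25 other genes of neuronal migration a median of 0.01 (18 above 0 and 7 below). The smallest p-values were those of Gng10, a G protein gamma subunit (0.11, SE 0.060), and Pik3cd, a PI3 kinase subunit (0.10, SE 0.059), in the former list. In the latter they were those of Nde1, a partner of the dynein regulator Lis1 (-0.23, SE 0.14), and Tuba1a, an alpha-tubulin of neurons (0.09, SE 0.060).

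Between Tbr1K228E/K228E and WT embryos, 1 of the 162 genes (0.617%) did not overlap, beside 0.594% of all tested genes. This gene was Rhou, which encodes an atypical GTPase, with 1243 to 1407 in Tbr1K228E/K228E and 1414 to 1567 in WT embryos (-0.11, SE 0.042, unadjusted p = 0.0237 in limma, adjusted p = 1.00). Between Tbr1K228E/K228E and Tbr1+/K228E embryos it was Rapgef2, a Rap exchange factor, with 2817 to 3302 against 2689 to 2788, which was named after its values were seen. In this comparison too the share was 0.617% of the 162 genes, beside 0.878% of all tested genes. Both shares are near those of all genes.

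**Figure D4:**
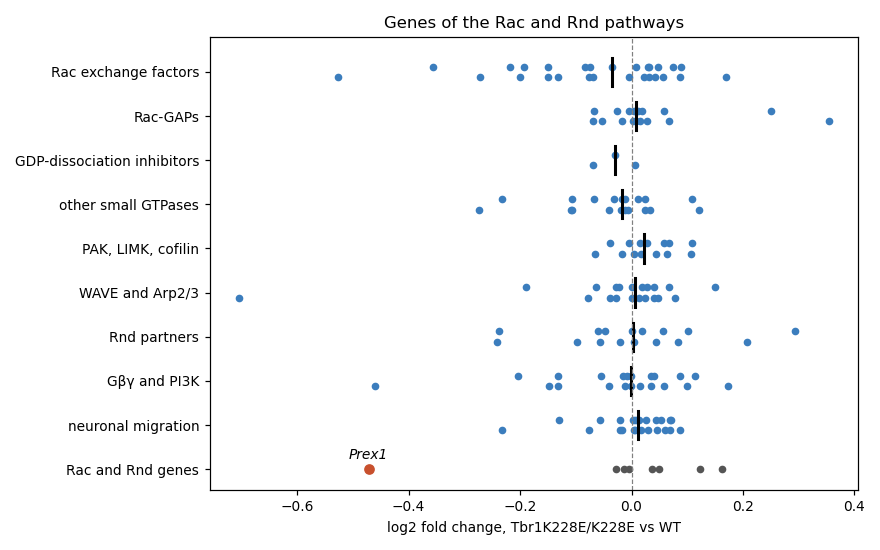
Log2 fold change between Tbr1K228E/K228E and WT embryos (horizontal axis) of every tested gene in the 9 pathway lists; blue points are genes and black lines are list medians, and the lowest row holds the 8 genes with Prex1 in red. The medians lie between -0.04 and 0.02, and Prex1 lies at -0.47.

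Within genotypes, the genes differed in how far they followed the makeup of the samples. To leave out the genotype means on which Prex1 was chosen, log2 values were taken as deviations from the genotype mean, and each of the 8 genes was compared over the 15 embryos with the cortical score, a score of 12 genes of dividing cells, the meningeal score, and Tbr1, with 100000 permutations within genotypes and the Benjamini–Hochberg correction over the 32 relations. Relations to the Hox sums were not computed.

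Tiam2 followed the cortical score most closely, with Pearson's r = 0.97 (permutation p = 3e-05, adjusted p = 0.00096) and Spearman's ρ = 0.94 (permutation p = 1e-05, the smallest that the permutations can give, adjusted p = 0.00032). Without the 2 embryos farthest from the median of the score r was 0.94, and within WT, Tbr1+/K228E, and Tbr1K228E/K228E embryos it was 1.00, 0.90, and 0.95. Tiam2 also followed Tbr1 (r = 0.93, permutation p = 7e-05, adjusted p = 0.00112, ρ = 0.91, permutation p = 2e-05, adjusted p = 0.00032, r = 0.89 without the 2 farthest embryos, and 0.96, 0.92, and 0.96 within the genotypes). Its relation to the score of dividing cells was looser (r = 0.76, permutation p = 0.0047, adjusted p = 0.019, ρ = 0.73, permutation p = 0.00537, adjusted p = 0.0216, 0.75, 0.60, and 0.82 within the genotypes), and r was 0.47 without the 2 farthest embryos. The SD of Tiam2 within genotypes was 0.50 on the log2 scale, at the 97.0th percentile of 12596 genes. The low embryos were the same as those of the cortical genes, whose sums were 25844 in WT replicate 4 and 30271 in Tbr1K228E/K228E replicate 2.

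Prex1 followed the cortical score less closely (r = 0.77, permutation p = 0.0136, adjusted p = 0.0435, ρ = 0.74, permutation p = 0.00541, adjusted p = 0.0216), with r = 0.66 without the 2 farthest embryos and 0.74, 0.94, and 0.81 within the genotypes. It also followed the score of dividing cells (r = 0.78, permutation p = 0.00175, adjusted p = 0.0112, ρ = 0.83, permutation p = 0.00201, adjusted p = 0.0135), with r = 0.68 without the 2 farthest embryos and 0.77, 0.77, and 0.88 within the genotypes. With Tbr1 the deviations of Prex1 correlated positively (r = 0.78, permutation p = 0.00212, adjusted p = 0.0113, ρ = 0.85, permutation p = 0.00039, adjusted p = 0.00416), with r = 0.68 without the 2 farthest embryos and 0.82, 0.88, and 0.83 within the genotypes. Thus embryos with more Tbr1 than others of their genotype had more Prex1, whereas between genotypes the mean of Prex1 was lowest where that of Tbr1 was highest. Whether the cortical genes, the dividing-cell genes, and Tbr1 vary together with the tissue in each sample was not tested. Their separate parts in the relations to Prex1 were not tested either.

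Rac3 ran the opposite way. Its deviations fell as the score of dividing cells rose (r = -0.84, permutation p = 0.0004, adjusted p = 0.00427, ρ = -0.80, permutation p = 0.00211, adjusted p = 0.0135), with r = -0.84 without the 2 farthest embryos and -0.98, -0.94, and -0.66 within the genotypes. With the cortical score r was -0.71 (permutation p = 0.00474, adjusted p = 0.019, ρ = -0.69, permutation p = 0.0103, adjusted p = 0.0316), with -0.53 without the 2 farthest embryos and -0.83, -0.85, and -0.46 within the genotypes. With Tbr1 r was -0.76 (permutation p = 0.00171, adjusted p = 0.0112, ρ = -0.75, permutation p = 0.00395, adjusted p = 0.0211), with -0.72 without the 2 farthest embryos and -0.94, -0.81, and -0.44 within the genotypes. Among the remaining genes, Prex2 followed the meningeal score (r = 0.73, permutation p = 0.0132, adjusted p = 0.0435, ρ = 0.65, permutation p = 0.0109, adjusted p = 0.0316), but r fell to 0.38 without the 2 farthest embryos, so this relation rests on them, and within the genotypes r was 0.99, 0.56, and 0.55. Rnd2 followed the score of dividing cells (r = 0.72, permutation p = 0.0155, adjusted p = 0.0452, ρ = 0.77, permutation p = 0.00727, adjusted p = 0.0258), with r = 0.68 without the 2 farthest embryos, but within the genotypes r was 0.87, -0.25, and 0.84, so the relation did not hold within Tbr1+/K228E embryos. For Rac1 and Rnd3, no relation passed the correction, and for Tiam1 the sole one that did was by rank with Tbr1 (ρ = 0.67, permutation p = 0.0158, adjusted p = 0.0421), where r was 0.61 (permutation p = 0.029, adjusted p = 0.0692), 0.55 without the 2 farthest embryos, and 0.66, 0.61, and 0.57 within the genotypes.

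**Figure D5:**
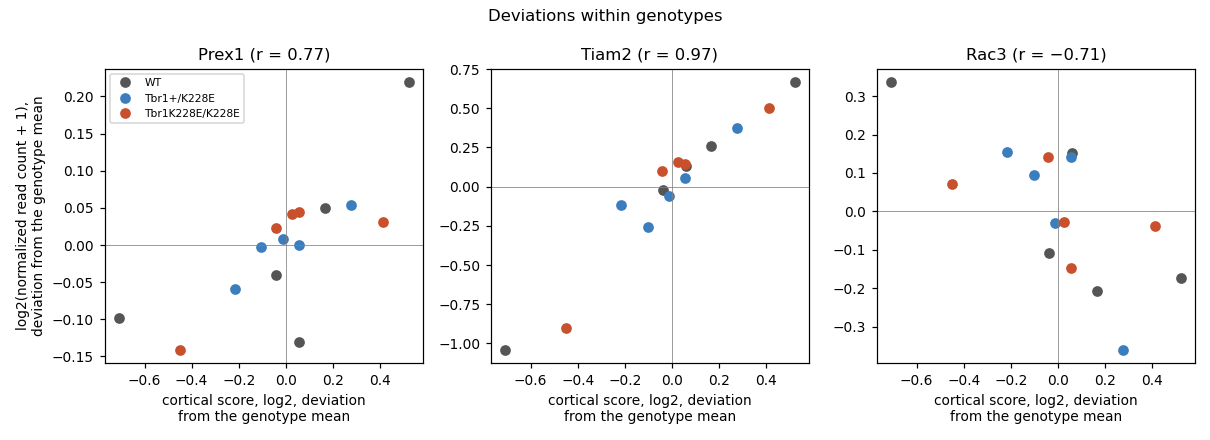
Deviation of log2(normalized read count + 1) from the genotype mean (vertical axes) of Prex1, Tiam2, and Rac3 against the deviation of the cortical score (horizontal axes); points are the 15 embryos, colored by genotype, and the vertical scales differ. Tiam2 (r = 0.97) and Prex1 (r = 0.77) rise with the score and Rac3 (r = -0.71) falls.

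Among the 13541 genes whose mean reached 50, those whose deviations over the 15 embryos were most like those of Prex1 were Nr1d2 (r = 0.92), Crls1 (r = 0.92), Zbed4 (r = 0.92), Blm (r = 0.92), and Nedd9 (r = 0.92). The most opposite were Lama3 (r = -0.90), Grrp1 (r = -0.90), Zdhhc22 (r = -0.90), Tspan17 (r = -0.90), and Nipal2 (r = -0.89). These r values are a description, being the extremes of many genes, and all 15 embryos share the normalization. The mean of Zbed4 was 2157 in WT and 2168 in Tbr1K228E/K228E embryos, and that of Nr1d2 was 508 and 476.

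Between females and males none of the 8 genes passed the correction, beside 13 genes (0.0788%) of all tested genes. The smallest p-value was that of Rac3, with 3608 ± 469 (SD, n = 9) in females and 4127 ± 397 (SD, n = 6) in males. Its log2 difference between females and males with genotype in the model was -0.20 (SE 0.080, adjusted p = 0.415 in limma). For Tiam2 the log2 difference was larger but less precise, at 0.24 (SE 0.23, adjusted p = 0.714 in limma), and for Prex1 it was 0.05 (SE 0.049, adjusted p = 0.745 in limma). Over all tested genes, 1822 had an unadjusted p under 0.05 between the sexes in limma, and 970 with the marker scores as covariates. The part of sample makeup in the differences between the sexes was not tested.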

How the data were processed

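The authors prepared libraries from brain RNA with the TruSeq RNA Sample Prep Kit v2, estimated transcript abundance with Salmon 0.11.2 on GRCm38 with GC bias correction, imported it to genes with tximport in R 3.5.3, and divided the counts by DESeq2 1.22.2 size factors. This normalized signal per gene and embryo, not whole reads, is what the authors deposited. Their sums, 30.5 to 31.8 M per embryo (M for mega), reflect the scaling, and the sequencing depth is unknown here. Whole reads were not recovered, and no count model was fitted.

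Ensembl identifiers were matched to GENCODE M21 of GRCm38 for 19469 of 19475 genes. All 15 embryos, grouped by the labels, entered one limma 3.58.1 fit (R 4.3.3, lmFit, eBayes with trend) of log2(value + 1), with genotype as the sole factor, over 16507 genes with a mean of at least 5, which was tested on simulated data. The Benjamini–Hochberg correction was applied over these genes, at a threshold of 0.05. The log2(value + 1) scale understates changes of low genes. Single genes were compared by two-sided exact permutation tests of 5 against 5, whose smallest p is 0.00794. Since nothing says that embryos came from separate litters, p-values measure the spread between these samples.

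The 8 genes, the pathway and marker lists, and the tests were chosen with earlier results of these data known. Named genes were Tbr1, the 8 genes, the 2 genes of smallest p between Tbr1K228E/K228E and WT in each pathway list together with any past the threshold, the 5 genes most and least correlated with Prex1, and the most abundant marker genes. A gene named by this rule is not reported here. The marker lists were the Hox, cortical, GABAergic, meningeal, endothelial, choroid plexus, dividing, erythroid, and microglial genes. Alternatives were other pseudocounts, filters, and scalings, sex, replicate number, or marker scores as covariates, robust eBayes, an empirical null, fits of 2 genotypes, and leaving out each embryo. The marker scores used together as covariates were those of the Hox, meningeal, and dividing-cell genes. No columns were identical, log2 values of embryos of a genotype correlated with r from 0.971 to 0.989, and Ddx3y matched the sex label in 15 of 15 embryos.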

Additional observations from a re-analysis of the deposited data

Results flagged for a closer look

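Among the 27 groups of 5 embryos (Tbr1 and the 8 genes in each genotype), 2 held an embryo far from the others by Dixon's criterion, which by chance marks about 1 group in 20. The Prex1 value of Tbr1K228E/K228E replicate 2 was 2474, and the next was 2773. The Prex2 value of Tbr1+/K228E replicate 3 was 502, and the next was 423.

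Of 24 comparisons of the effect in females with that in males, 2 went opposite ways in every embryo, both in Rac1. The difference in log2 values between Tbr1K228E/K228E and WT embryos was -0.038 in females and 0.023 in males, and between Tbr1+/K228E and WT embryos it was -0.032 in females and 0.042 in males. These share the WT embryos, and the difference between the sexes was not tested.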

How the results depend on the processing

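Without an embryo at a time, 12 to 21 genes were called between Tbr1K228E/K228E and WT, 0 between Tbr1+/K228E and WT, 6 to 8 between Tbr1K228E/K228E and Tbr1+/K228E, and 10 to 24 between females and males, the most without Tbr1K228E/K228E replicate 2. Of the 8 genes, 1 (Prex1) was called between Tbr1K228E/K228E and WT in each of these fits and 0 between Tbr1K228E/K228E and Tbr1+/K228E, where it was 1 with all embryos. The log2 fold change of Prex1 ranged from -0.50 to -0.42 between Tbr1K228E/K228E and WT. Since Prex1 was chosen on these embryos, its calls and values here are a description and support nothing.

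Between Tbr1K228E/K228E and WT, 46 genes were called with the marker scores as covariates, 42 with the cortical score, 43 with the empirical null, 12 in a fit of the 2 genotypes, 4 without the embryos with high Hox sums, and 7 without the 3 embryos with the lowest meningeal scores. Between Tbr1+/K228E and WT, 1 gene (Tbr1) was called with the cortical score. Between Tbr1K228E/K228E and Tbr1+/K228E the counts were 27, 31, 0 (empirical null), 7 (without high Hox sums), and 0 (without low meningeal scores). The fits with the cortical score and without high-Hox or low-meninges embryos were added after seeing the data, and the latter leave fewer embryos. Prex1 was not called, leaving 0 of the 8 genes, without the high-Hox embryos in either comparison, and, between Tbr1K228E/K228E and Tbr1+/K228E, with the empirical null and without the low-meninges embryos.

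The replicate block gave 16, 0, and 2 genes in these comparisons, and 0 of the 8 genes in the last. Same-numbered embryos correlated with r from -0.23 to 0.51 in their deviations, and in 6 of 15 pairs an embryo correlated best with its own number. Same-numbered embryos had the same sex in every genotype, so the replicate block also took up sex. Not every pair correlated positively, and no label ties the numbers to a litter or day. The numbers were therefore not taken to pair the embryos, and a shared source of some of them beyond sex was not tested.

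Some log2 fold changes turned sign, none of them called, and the cause was not tested. With all embryos and no covariate for sample makeup, the largest of these were those of Tiam2, 0.23 between Tbr1+/K228E and WT and 0.24 between females and males. With the marker scores as covariates, Tiam2 was -0.023, Rnd2 0.0025, and Rnd3 0.0013 between Tbr1K228E/K228E and WT, and Rac3 0.050 between Tbr1+/K228E and WT. Between females and males Prex1 was -0.033, Tiam1 -0.024, Tiam2 -0.045, Rnd2 -0.019, and Rnd3 -0.0017. With the cortical score Tiam2 was -0.088 and -0.031 in the comparisons with WT, and Rac3 0.021 in Tbr1+/K228E. Without high-Hox embryos Tiam2 was -0.40 and Rnd3 0.054 between Tbr1K228E/K228E and WT, and Prex2 0.14, Tiam1 0.0004, and Tiam2 -0.14 between Tbr1+/K228E and WT. Without low-meninges embryos Rnd2 was 0.0091 and Rnd3 0.057 between Tbr1K228E/K228E and WT, Rac1 0.0055 between Tbr1+/K228E and WT, and Rnd3 0.023 between the mutants. With the upper quartile Rac1 was 0.0028 between Tbr1+/K228E and WT.

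Without an embryo at a time, Tiam2 ranged from -0.22 to 0.26, Rnd2 from -0.083 to 0.015, and Rnd3 from -0.059 to 0.019 between Tbr1K228E/K228E and WT. Between Tbr1+/K228E and WT, Tiam2 ranged from -0.032 to 0.39, Rac1 from -0.016 to 0.0055, Rac3 from -0.10 to 0.037, Rnd2 from -0.0090 to 0.089, and Rnd3 from -0.042 to 0.047. Between the mutants, Tiam2 ranged from -0.32 to 0.035, Rac1 from -0.018 to 0.0019, and Rnd3 from -0.051 to 0.032, and between females and males Rnd3 ranged from -0.020 to 0.079. The sequencing depth is unknown, so what it limits cannot be said.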

Other observations

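The embryos also varied in the other marker lists, given here as summed normalized read counts from the lowest to the highest embryo. The 9 GABAergic genes, led by Dlx1, ran from 15895 in Tbr1K228E/K228E replicate 2 up to 26290.5 in Tbr1+/K228E replicate 2, and the 12 genes of dividing cells, led by Mki67, from 13978 to 26330 in the same embryos. The 7 choroid plexus genes, led by Ttr, ran from 943 in Tbr1K228E/K228E replicate 4 up to 25409, reached by Tbr1+/K228E replicate 1. The 7 erythroid genes, led by Hbb-bs, ran from 28772 in Tbr1K228E/K228E replicate 4 up to 83192, reached by Tbr1+/K228E replicate 2. The 7 endothelial genes, led by Kdr, ran from 5206 in WT replicate 3 to 9797 in Tbr1K228E/K228E replicate 5, and the 7 microglial genes, led by Csf1r, from 764 in Tbr1K228E/K228E replicate 3 up to 1640 in Tbr1+/K228E replicate 2.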
